A study of Mus musculus with 16 samples.

Results

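The identity of the 2 classical dendritic cell subsets was compared between spleen and activated bone marrow culture. The members were chosen by design: all 16 arrays of the series, taken as 8 mice that each gave 1 CD24+ and 1 CD172a+ array. For every mouse the CD172a+ array was subtracted from the CD24+ array, and the 4 differences from culture were compared with the 4 from spleen over 19187 of 19938 named genes, those not on chromosomes X and Y. A positive difference means a higher signal in CD24+ cells, and a change is the culture difference minus the spleen difference.

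The series was made to measure how far the transcriptome of dendritic cells depends on Ciita, the transactivator of MHC class II genes. RNA of sorted cells was hybridised to Affymetrix Mouse Gene 1.0 ST arrays. All mice were of strain B6 and carried Zbtb46 GFP/+, a reporter allele of a transcription factor of the classical dendritic cell lineage. In each tissue 2 mice were Ciita +/+ (WT) and 2 were Ciita -/- (KO), so genotype was balanced between the tissues. Spleen cells were sorted from untreated mice. Culture cells grew from whole bone marrow for 9 days in 5% Flt3l, were treated with gamma interferon, for 16 hours by one label and 22 hours by another, and then with LPS for 4 hours. Organ, culture and activation differed together, so they cannot be told apart. RNA came from a sorted population, so fewer cells of a type and less RNA per cell cannot be told apart either.

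Classical dendritic cells fall into cDC1 and cDC2. The cDC1 subset, sorted here by CD24, depends on the transcription factors Irf8 and Batf3, carries Xcr1 and Clec9a, and presents material from dead cells to CD8 T cells. The cDC2 subset, sorted by CD172a (the product of Sirpa), depends on Irf4 and, for its splenic form, on Notch2 signalling, and primes CD4 T cells. Flt3 ligand cultures are a common source of both, and their cells are known to differ from splenic ones in surface markers, CD8a and CD4 among them.

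The 2 array labels held in both tissues. Sirpa, the gene of the CD172a sort marker, was 3.72 to 4.15 lower on the log2 scale in the CD24+ array of every spleen mouse and 2.03 to 2.94 lower in every culture mouse. Xcr1 was 5.23 to 5.66 higher in the spleen mice and 3.31 to 4.36 higher in the culture mice. For Cd24a, the gene of the other sort marker, the CD24+ array read 1.93 to 2.23 higher in the spleen mice and 0.01 to 0.12 higher in the culture mice, and only the spleen difference passed the test. The 4 spleen differences correlated with each other at 0.89 to 0.92 across genes. The culture differences correlated at 0.75 to 0.91, and culture KO replicate 2 stood apart, at 0.75 to 0.78 with the other culture mice, which correlated at 0.85 to 0.91 among themselves. Ciita itself read 10.90 to 11.28 on KO and 10.97 to 11.40 on WT spleen arrays, which overlap, and 7.17 to 9.70 on KO and 10.15 to 10.85 on WT culture arrays. Whether the probe set lies in the deleted part is not known here, so in spleen it does not check the genotype. The class II gene H2-Eb1, a target of Ciita, read 10.68 to 12.45 on KO and 14.05 to 14.08 on WT spleen arrays, without overlap. In culture KO replicate 2 the CD24+ array read 9.58 for Xcr1 against 10.41 to 10.87 in the other 3 mice and 9.17 for Sirpa against 8.36 to 8.43.

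In spleen 5894 genes differed between the subsets (30.7% of those tested, adjusted p under 0.05 in a limma fit of the 8 mouse differences), 3144 higher in CD24+ and 2750 higher in CD172a+ cells. In culture 5096 differed (26.6%), 2308 higher in CD24+ and 2788 higher in CD172a+ cells. The difference itself changed between tissues for 5747 genes (30.0%), 2601 toward CD24+ and 3146 toward CD172a+. The median gene changed by -0.06, and with each mouse's median set to 0 the majority direction turned in all 3 comparisons. The calls were then 2688 toward CD24+ and 3063 toward CD172a+ in spleen, 2505 and 2417 in culture, and 2958 and 2456 (of 5414) for the change. From these 3 tests each gene was placed in a class. A difference was kept where it passed in both tissues with the same sign (1666 genes, 8.68%) and reversed where it passed in both with opposite signs (984, 5.13%). It was lost where it passed in spleen, not in culture, and the change passed (2182, 11.4%), and gained where it passed in culture, not in spleen, and the change passed (1628, 8.48%). A further 1062 genes passed in spleen alone and 818 in culture alone with no call for the change, and 10847 (56.5%) passed in neither tissue.

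Few of the large differences were large in both tissues. Of the 815 genes (4.25%) with a called spleen difference of at least 2-fold, 72.5% had the same sign in culture and 17.4% differed at least 2-fold the same way there. Their median size was 1.51 on the log2 scale in spleen and 0.381 in culture. Of the 596 genes (3.11%) with a called culture difference of at least 2-fold, 68.5% had the same sign in spleen and 23.8% were at least 2-fold the same way. These 596 genes had a median size of 1.43 in culture and 0.479 in spleen. Each list was chosen for its size in its own tissue, so a smaller size in the other is partly built in. A change of at least 2-fold was called for 1183 genes (6.17%). In all, 142 genes were at least 2-fold different the same way in both tissues and 16 the opposite way. The 158 genes of both lists are 19.4% of the spleen list and 26.5% of the culture list. Across genes the spleen and culture means correlated at 0.276 (Pearson) and 0.14 (Spearman), where genes are not independent replicates. Any spleen mouse correlated with any culture mouse at 0.18 to 0.28. Without culture KO replicate 2 the 2-fold culture list held 771 genes and the shared ones were 164 the same way and 26 the opposite way.

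**Figure D1:**
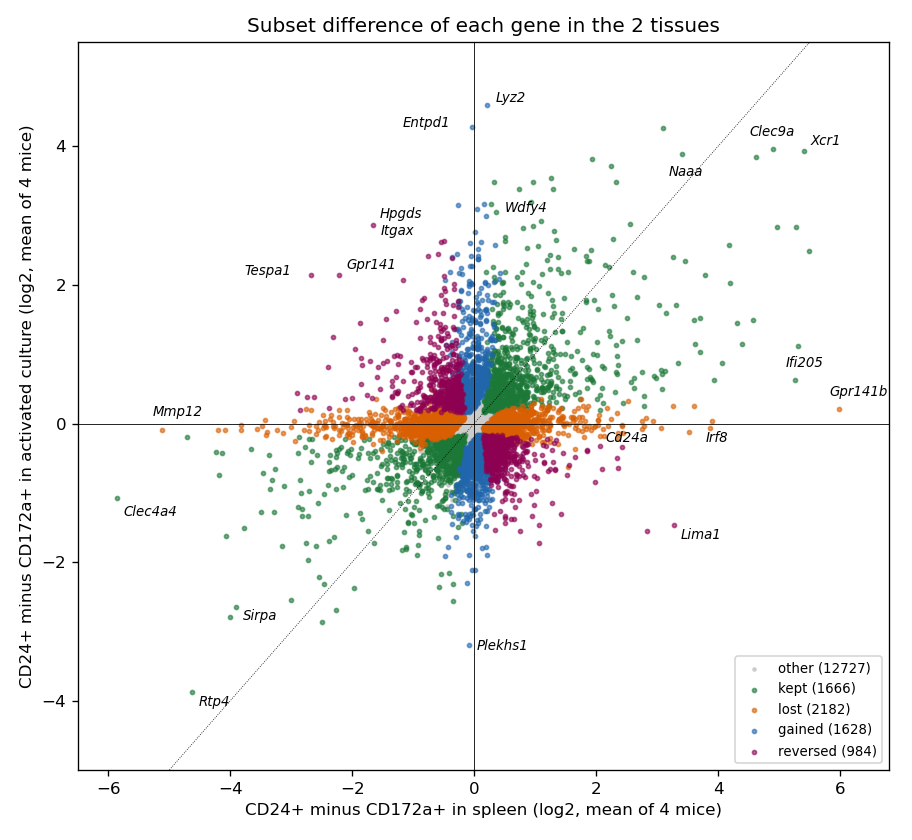
Mean subset difference of 19187 genes in spleen (x axis) and in activated culture (y axis), both CD24+ minus CD172a+ on the log2 scale over 4 mice. Colours mark kept, lost, gained and reversed genes, and the dotted line marks equal differences. Genes such as Gpr141b and Mmp12 lie on the horizontal axis, Lyz2 and Entpd1 on the vertical axis, and Clec9a, Naaa and Rtp4 nearer the dotted line.

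The spread of a mouse's differences over all genes, a measure of how far apart its subsets were, was 0.499 and 0.490 in the WT and 0.512 and 0.513 in the KO spleen mice. It was 0.410 and 0.455 in the WT and 0.473 and 0.350 in the KO culture mice. All culture mice lay below all spleen mice, with means of 0.422 ± 0.055 (SD, n = 4) and 0.504 ± 0.011 (difference -0.081, exact permutation test, 2-sided p = 0.0286, the smallest that 70 splits allow). Without culture KO replicate 2, the lowest, the difference was -0.057. Counts of genes at least 2-fold apart within a mouse did overlap between the tissues. They were 843 and 851 in the WT and 874 and 919 in the KO spleen mice. In culture they were 649 and 866 in the WT and 895 and 394 in the KO mice. How the deposited values were normalized is unknown here, and a difference in scale between the tissues would enter both measures.

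The 4 genes that marked the shift at the outset went different ways. Gpr141b, an orphan G protein-coupled receptor gene, read 12.07 to 12.41 on the 4 spleen CD24+ arrays and 5.97 to 6.37 on the 4 spleen CD172a+ arrays. In culture it read 5.92 to 6.19 and 5.73 to 5.92. Only the splenic CD24+ cells were high, and the culture arrays of both subsets lay beside the low spleen arrays. Its spleen difference of 5.99 ± 0.08 (SE), 63.6-fold, was 0.21 ± 0.08 in culture (adjusted p = 0.103), a change of -5.78 ± 0.12 (adjusted p = 4.96e-08).

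Mmp12, the macrophage elastase, showed the same in the other subset. It read 12.04 to 12.42 on spleen CD172a+ arrays, 6.96 to 7.32 on spleen CD24+ arrays and 6.25 to 6.66 on all 8 culture arrays. The spleen difference of -5.11 ± 0.09 was -0.09 ± 0.09 in culture (95% interval -0.29 to 0.10), a change of 5.02 ± 0.12 (adjusted p = 6.03e-08).

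Clec4a4, the C-type lectin receptor DCIR2 of splenic cDC2, kept its direction with a smaller size. The difference was -5.83, -6.03, -5.81 and -5.78 in the spleen mice (WT replicates 1 and 2, then KO replicates 1 and 2, the order used throughout) and -1.17, -1.33, -1.15 and -0.62 in the culture mice. CD172a+ arrays read 10.53 to 10.76 in spleen and 4.96 to 5.63 in culture, and CD24+ arrays 4.73 to 4.86 and 4.28 to 4.44. The culture difference thus lay among low readings, below the culture array medians (6.85 to 6.92). The change was 4.79 ± 0.12 (adjusted p = 7.11e-08).

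Ifi205, an interferon-inducible gene of the p200 family, also kept its direction, but from a high level in both subsets. It read 12.64 to 12.89 on spleen CD24+ and 7.31 to 7.72 on spleen CD172a+ arrays, and 13.07 to 13.10 and 12.17 to 12.72 in culture. The difference of 5.27 ± 0.08 in spleen was 0.63 ± 0.08 in culture (adjusted p = 3.71e-04).

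**Figure D2:**
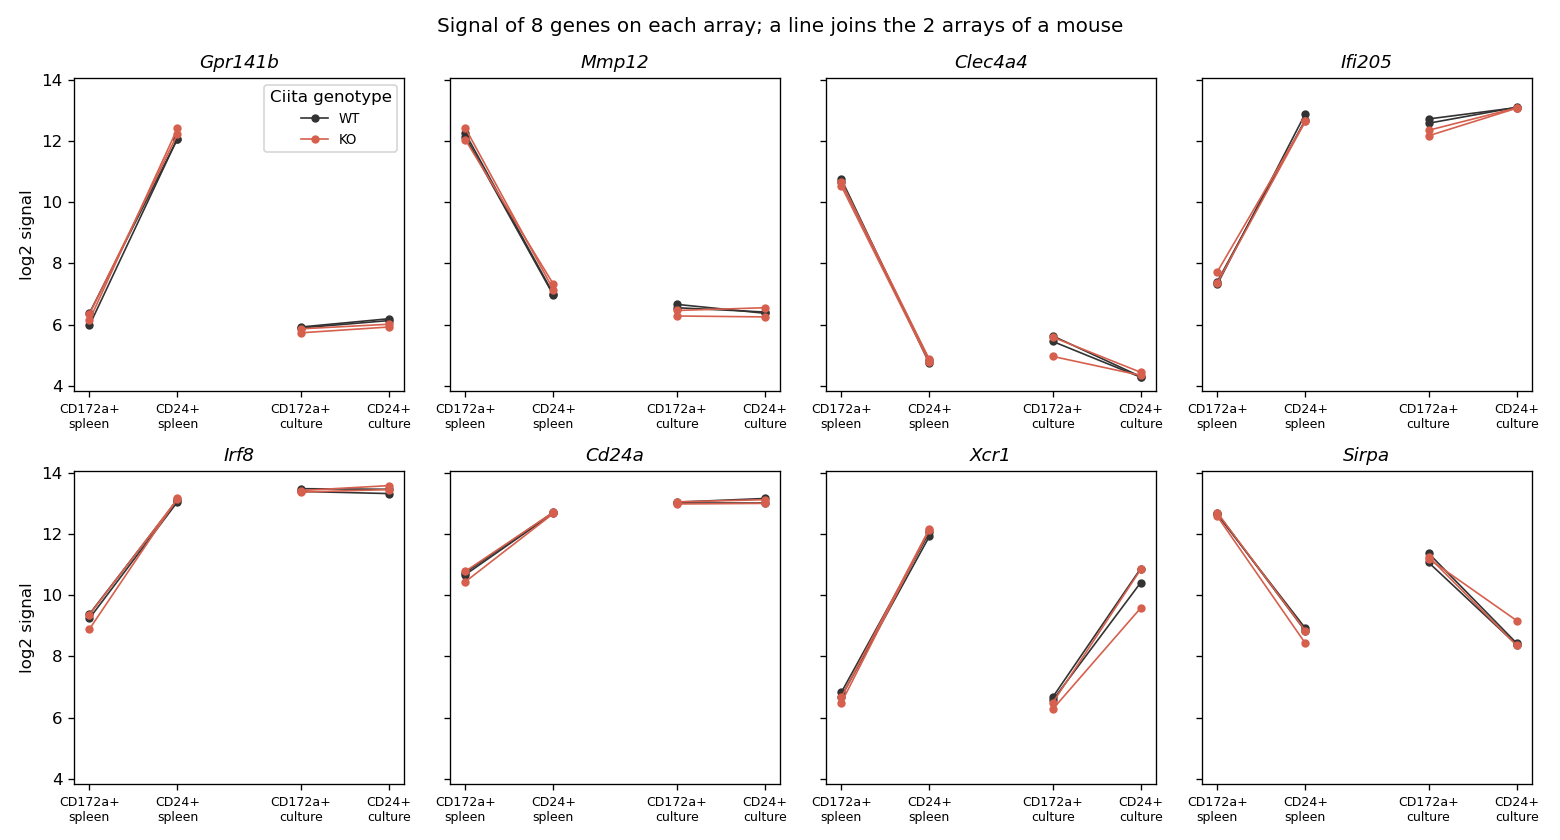
Log2 signal of 8 genes on each of the 16 arrays, with a line joining the CD172a+ and CD24+ array of each mouse and colour giving the Ciita genotype. The culture lines are flat and low for Gpr141b and Mmp12, flat and high for Irf8 and Cd24a, and still steep for Xcr1 and Sirpa.

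Most listed cDC1 genes kept their direction. Of 26 listed cDC1 genes 25 were measured, and all 25 were higher in spleen CD24+ cells (16.4% of all genes were). In culture 21 were higher in CD24+ cells (12.0% of all genes) and 1 was lower. By class 21 were kept, 3 lost and 1 reversed, against 8.68%, 11.4% and 5.13% of all genes. The median difference was 3.78 in spleen and 1.5 in culture, against 0.03 and -0.03 over all genes. The list is made of genes known to mark this subset, so its direction in spleen is no finding. For 21 of the 25 the change was called toward CD172a+, and for 4 toward CD24+.

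Several receptors of the subset stayed far apart. Clec9a, the receptor for actin of dead cells, was 4.77 to 5.04 higher in CD24+ cells of the spleen mice and 3.73 to 4.16 higher in those of the culture mice, with a change of -0.95 ± 0.08 (adjusted p = 4.05e-05). Xcr1, the receptor for the chemokine Xcl1, differed by 5.41 ± 0.14 and 3.93 ± 0.14. Cd36, a scavenger receptor, gave 4.63 ± 0.16 and 3.84 ± 0.16. The integrin Itgae (CD103) and the adhesion molecule Cadm1 gave 4.18 and 3.78 in spleen and 2.58 and 2.15 in culture.

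Other cDC1 genes kept the sign with little of the size. Cd8a, whose protein marks the splenic but not the cultured cells, went from 4.06 ± 0.12 to 0.87 ± 0.12. Hepacam2 went from 3.93 to 0.63 and Tlr12, an endosomal sensor of profilin, from 2.98 to 0.66. The culture difference of Hepacam2 lay among low readings (5.21 to 6.05 on all culture arrays), below the culture array medians (6.85 to 6.92). The double-stranded RNA sensor Tlr3 gave 4.24 to 4.38 in the spleen mice and 2.46, 1.32, 1.19 and 0.85 in the culture mice. Its spread in culture was wide, but no culture mouse came near a spleen mouse.

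Irf8, Cd24a and Cd207 were the lost cDC1 genes. Irf8, the transcription factor that cDC1 cells need, read 13.05 to 13.16 on spleen CD24+ and 8.89 to 9.38 on spleen CD172a+ arrays. In culture the CD24+ arrays read 13.32 to 13.58 and the CD172a+ arrays 13.37 to 13.48. The CD172a+ culture arrays thus lay within the range of the CD24+ culture arrays, and the difference of 3.90 ± 0.08 was 0.04 ± 0.08 in culture (95% interval -0.14 to 0.21), a change of -3.87 ± 0.11 (adjusted p = 8.29e-08). Cd24a behaved alike, with 12.67 to 12.71 and 10.44 to 10.78 in spleen and 12.98 to 13.16 on all culture arrays. Whether the top of the signal range (highest value 14.55) limits the culture differences of Irf8 and Cd24a was not tested. Cd207 (langerin) was instead low in both culture subsets, at means of 6.30 and 6.34, against 9.22 and 6.8 in spleen.

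Batf3, the partner factor of Irf8, was 0.13 to 0.42 higher in CD24+ cells of the spleen mice and 0.58 to 0.82 lower in those of the culture mice. Its change was -1.03 ± 0.09 (adjusted p = 4.83e-05), and without spleen WT replicate 1 or spleen KO replicate 1 its spleen difference was no longer called. Naaa, Ppt1, Rab43 and Wdfy4 were the 4 members with a larger contrast in culture. Wdfy4, which cDC1 cells need for cross-presentation, had differences of 0.25 to 0.43 in spleen and 2.91 to 3.13 in culture, with CD24+ means of 13.35 and 12.64 and CD172a+ means of 12.99 and 9.58. The CD172a+ level was the one that set the tissues apart. Ppt1, a lysosomal thioesterase, went from 2.32 ± 0.07 to 3.48 ± 0.07.

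**Figure D3:**
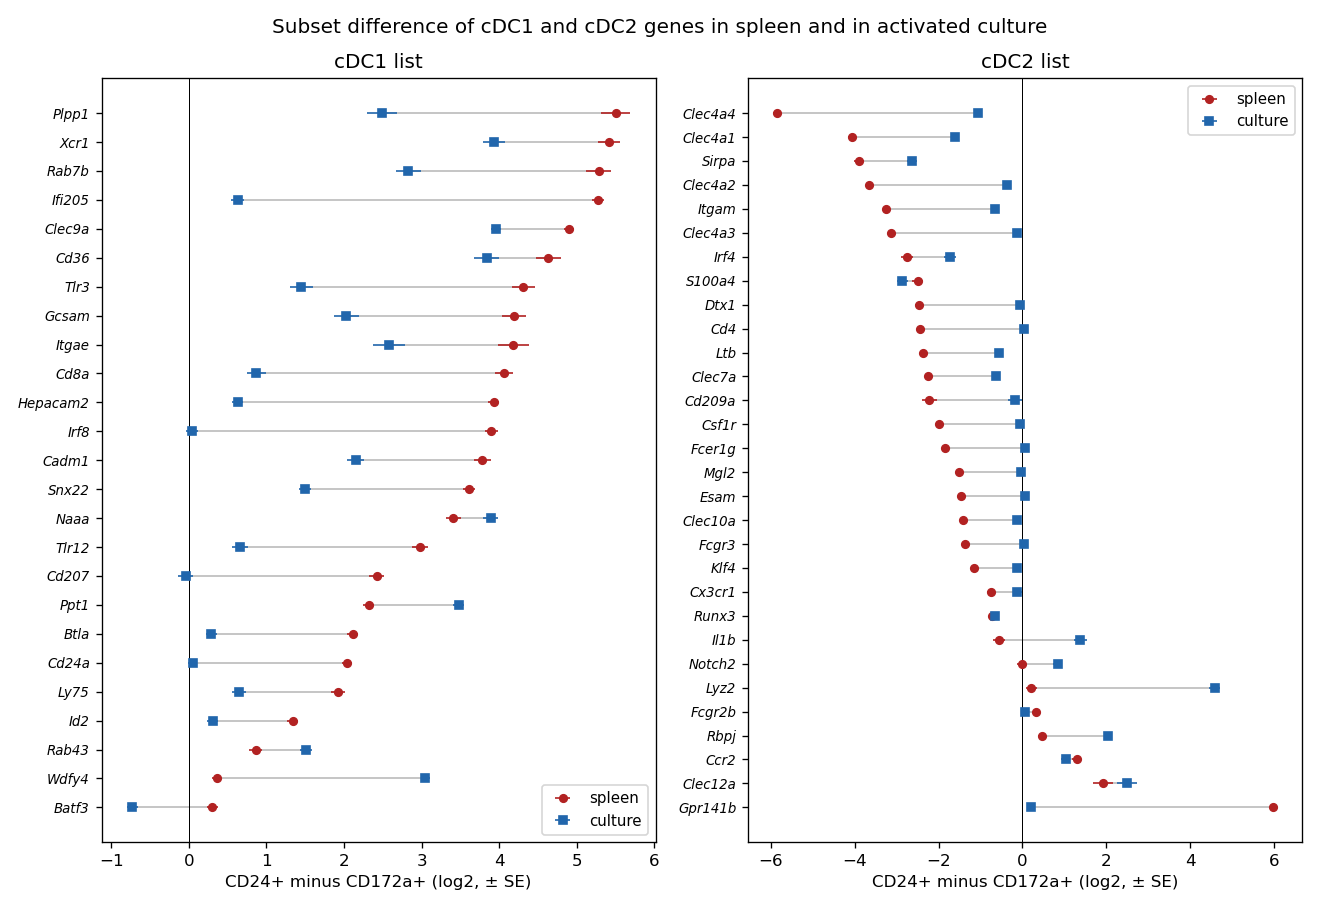
Subset difference of the measured members of the cDC1 list (left, 25 genes) and the cDC2 list (right, 30 genes) in spleen (red circles) and culture (blue squares), as log2 means of 4 mice with the SE of the fit. In the left panel most blue squares stay right of 0, while in the right panel many lie at 0.

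About as many listed cDC2 genes were lost as kept. Of 30 listed genes, all measured, 23 were higher in spleen CD172a+ cells (14.3% of all genes were) and 10 in culture CD172a+ cells (14.5% of all genes). Of the list 13 were kept (10 as higher in CD172a+), 13 lost, 2 gained and 1 reversed. Over all genes these classes held 8.68%, 11.4%, 8.48% and 5.13%. The median difference of the list was -1.69 in spleen and -0.10 in culture. Gpr141b, Clec12a, Ccr2, Rbpj and Fcgr2b, though listed, were higher in spleen CD24+ cells, and Clec12a, Ccr2, Rbpj, Lyz2, Notch2 and Il1b were the 6 higher in culture CD24+ cells.

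Kept cDC2 genes were led by Sirpa (-3.90 ± 0.12 and -2.64 ± 0.12), the calcium-binding protein S100a4 (-2.50 and -2.87) and the transcription factor Irf4, which drives cDC2 cells. Irf4 gave -2.83, -2.46, -2.58 and -3.17 in the spleen mice and -1.75, -2.31, -1.77 and -1.08 in the culture mice, so it was higher in CD172a+ cells of all 8. The integrin Itgam (CD11b) went from -3.26 to -0.65 and Clec7a, the beta-glucan receptor dectin-1, from -2.25 to -0.63. For both, the KO culture mice (-0.16 and -0.30 for Itgam, -0.10 and -0.26 for Clec7a) lay nearer 0 than the WT ones (-1.10 and -1.04, -1.16 and -0.99).

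C-type lectin receptors, which bind glycans, were also split. Among 27 measured C-type lectin receptors 16 were higher in CD172a+ and 7 in CD24+ spleen cells, and 8 and 5 in culture (14.3% and 16.4% of all genes in spleen, 14.5% and 12.0% in culture). Of these genes 11 were kept, 11 lost and 1 reversed, against 8.68%, 11.4% and 5.13% of all genes. Clec4a2 went from -3.66 to -0.36 and was kept, though it read only 4.23 to 4.87 on all culture arrays. Clec4a3 went from -3.14 ± 0.08 to -0.13 ± 0.08. Cd209a (a DC-SIGN homologue), Clec10a and Mgl2, galactose-type lectins, were lost from -2.22, -1.41 and -1.52. Clec4b2 was higher in CD24+ spleen cells, by 3.24 to 3.80, and gave -0.22 to -0.02 in culture.

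Of 10 genes listed as Notch2-dependent in splenic dendritic cells, 7 were higher in spleen CD172a+ cells and 3 in culture CD172a+ cells (14.3% and 14.5% of all genes), and Notch2 alone was higher in culture CD24+ cells. Esam, an adhesion molecule of the Notch2-dependent cDC2 cells, differed by -1.37 to -1.54 in spleen and 0.01 to 0.09 in culture. Cd4 differed by -2.13 to -2.74 and -0.09 to 0.11, and Dtx1, a Notch target, by -2.22 to -2.66 and -0.22 to 0.07. For all 3 every culture mouse lay above every spleen mouse, as for 13.3% of all genes. Gpr183, the oxysterol receptor that positions cDC2 cells, was kept at -1.97 ± 0.12 and -2.38 ± 0.12. The genes of the pathway's receptor and a ligand went apart in culture: Notch2 was higher in CD24+ cells by 0.84 ± 0.10 and Dll4 higher in CD172a+ cells by 1.30 ± 0.16, from differences of -0.02 and 0.09 in spleen.

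The kept genes with large differences in both tissues and higher in CD172a+ cells included antiviral genes, several of them members of the interferon list described further on. Rtp4, a receptor transporter induced by interferon, had the largest smaller difference of all kept genes higher in CD172a+ cells. It read 11.16 to 11.94 on spleen and 11.19 to 11.64 on culture CD172a+ arrays, and 6.76 to 7.14 and 7.14 to 7.88 on CD24+ arrays. The differences were -4.63 ± 0.06 and -3.88 ± 0.06. Ddx58, which encodes the RNA sensor RIG-I, gave -4.0 ± 0.10 and -2.79 ± 0.10, and Ifit3 -3.01 ± 0.08 and -2.54 ± 0.08. Siglecg (-2.46 and -2.31) and the fatty acid carrier Fabp5 (-2.27 and -2.69) were kept without a called change. On the CD24+ side, besides Clec9a, Xcr1, Cd36 and Naaa, they included Ctla2b (3.10 and 4.26), P2ry14, a receptor for UDP-sugars (4.96 and 2.84), and Rab7b of the cDC1 list (5.28 and 2.83).

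Some kept genes differed by under 2-fold in spleen and much more in culture. Plekho2 went from 0.33 ± 0.10 to 3.49 ± 0.10, Plbd1 from 0.28 to 3.17, the Ras activator Rasgrp3 from 0.73 to 3.38 and the mitochondrial serine carrier Sfxn1 from 0.96 to 3.48. Tnfsf4 (OX40 ligand) was 0.16 to 0.73 higher in CD172a+ cells of spleen and 2.07 to 2.90 higher in those of culture. The spleen calls were lost without any 1 spleen mouse for Plekho2, without spleen WT replicate 2 or spleen KO replicate 2 for Plbd1, and without spleen WT replicate 1, either spleen KO or either culture WT mouse for Tnfsf4. These would then be gained genes, while the changes of Plekho2 and Tnfsf4 passed with all mice (adjusted p = 6.02e-07 and 1.04e-05).

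Lost differences of at least 2-fold comprised 131 genes higher in spleen CD24+ and 213 higher in spleen CD172a+ cells (1.93% and 2.31% of all genes differed that much in spleen). They were sorted by where the culture signal of the same probe set, averaged over both subsets, lay against its 2 spleen subsets, after the median of all genes was aligned between tissues (a shift of 0.46). Of the 131, culture lay at or below the lower spleen subset for 61, between the subsets but nearer the lower for 27, nearer the higher for 9, and at or above the higher one for 34. Of the 213 the counts were 146, 39 between and nearer the lower, 12 between and nearer the higher, and 16. On the values as deposited the first and last counts were 82 and 27, and 174 and 14. No level was tested between tissues, since the array medians were 7.29 to 7.32 in spleen and 6.85 to 6.92 in culture. Of all 371 and 444 genes at least 2-fold higher in a spleen subset, 133 and 237 were at or below the lower subset after the alignment. At or above the higher subset were 89 and 71.

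In the first group both culture subsets read low. Serpinb8, a protease inhibitor, had means of 10.17 and 6.30 in spleen CD24+ and CD172a+ cells and of 5.53 and 5.59 in culture. Treml4, a receptor of splenic dendritic cells, was 1.30 to 1.89 higher in spleen CD24+ cells, where its mean was 12.51, and read 6.33 and 6.31 in culture. On the CD172a+ side the adaptor Sh2d1b1 (-4.09 ± 0.06 to -0.09 ± 0.06), the adhesion receptor Adgre4 (-3.56 to -0.08) and Csf1r, the receptor for M-CSF (-1.99 to -0.05), belonged here. So did the receptors Cd300lf (-3.48 to -0.03) and Cd300ld (-3.39 to -0.12).

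In the last group both culture subsets read high. Cxcl9, a chemokine induced by gamma interferon, had means of 12.28 and 9.02 in spleen and 13.33 and 13.08 in culture (3.26 ± 0.09 to 0.25 ± 0.09). Its culture difference was called without either spleen KO mouse, which makes it a kept gene there. Apol7c read 12.43 and 9.98 in spleen and 13.90 and 14.03 in culture, near the highest value of the data set (14.55). Ccl22, a chemokine of mature dendritic cells, read 8.72 and 7.34 in spleen and 11.93 and 11.89 in culture. Ptgs2, the prostaglandin synthase COX-2, lay between its spleen subsets, nearer the higher: 8.49 to 9.22 on spleen CD24+ arrays, 12.86 to 13.07 on spleen CD172a+ arrays and 11.11 to 12.14 on all culture arrays. Its culture differences were -0.26, -0.57, -0.31 and 0.74, with culture KO replicate 2 the only mouse above 0, and without that mouse Ptgs2 was kept.

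**Figure D4:**
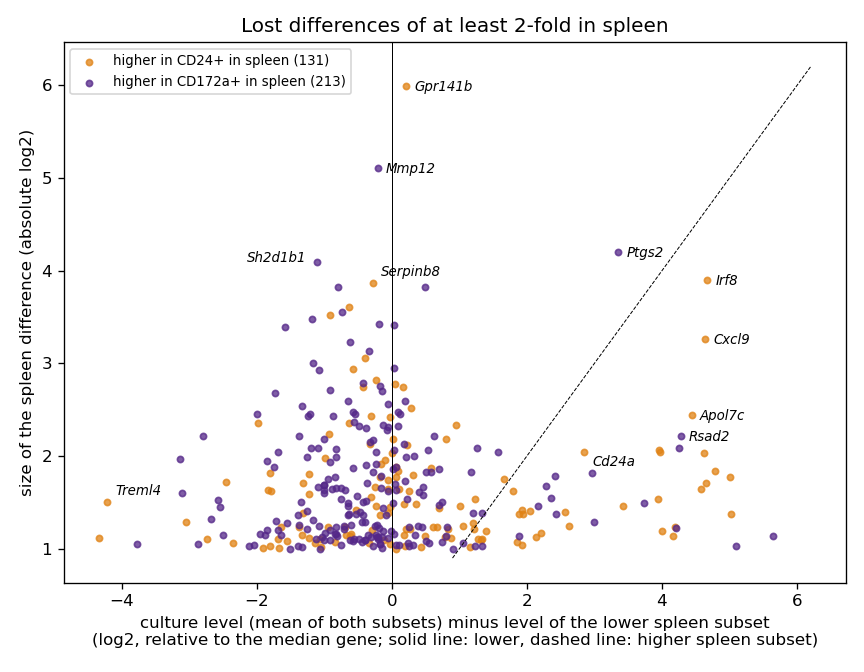
The 131 and 213 lost genes of at least 2-fold in spleen, by the size of the spleen difference (y axis, absolute log2) and the culture level minus the level of the lower spleen subset (x axis, log2, relative to the median gene). Points left of the solid line read below both spleen subsets in culture (Treml4, Sh2d1b1), and points right of the dashed line above both (Irf8, Cxcl9, Apol7c).

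Interferon-stimulated genes were found among both the kept and the lost. Of 21 measured type I interferon response genes 16 were higher in spleen CD172a+ and 3 in spleen CD24+ cells (14.3% and 16.4% of all genes). In culture 11 and 2 were (14.5% and 12.0%), and 11 were kept and 8 lost (8.68% and 11.4%). The listed genes read higher in culture than in spleen in both subsets: array means of the list were 8.14 to 8.44 (CD24+) and 9.51 to 9.96 (CD172a+) in spleen and 10.90 to 11.07 and 11.52 to 11.80 in culture. Rsad2 (viperin) had spleen differences of -2.0 to -2.35 and culture differences of 0.02 to 0.45, and Ifih1 (the RNA sensor MDA5) -1.16 to -1.42 and -0.09 to 0.00. Ifit1 was kept, from -2.82 ± 0.08 to -1.34 ± 0.08, as were Oas2 (-3.46 to -0.72) and Oasl2 (-2.86 to -0.81). Without either spleen WT mouse the culture difference of Rsad2 was called, which makes it a reversed gene there. Of 10 measured p200 family genes 4 were kept, 3 lost, 1 gained and 1 reversed (8.68%, 11.4%, 8.48% and 5.13% of all genes). Ifi206 was higher in CD172a+ cells of both tissues (-2.72 and -1.97), opposite to Ifi205, and Ifi213 was lost (-1.82 to -0.03). Near-identical copies in this family can share probes.

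Promoters are shown for 4 genes of different classes because interferon-stimulated genes carry binding sites of the STAT and IRF families near their start. Each is the RefSeq sequence of GRCm38.p6 from 250 bases before to 50 after the start, on the gene's strand, with matches to an IRF-type repeat (GAAA, any 2 bases, GAAA, searched on both strands) in capitals. Ifit3 (kept) is at chr19:34583279-34583578, Rsad2 (lost, high in both culture subsets) at chr12:26456403-26456702, Gpr141b (lost, low in both) at chr13:19732902-19733201 and Gpr141 (reversed) at chr13:19824208-19824507.
Ifit3: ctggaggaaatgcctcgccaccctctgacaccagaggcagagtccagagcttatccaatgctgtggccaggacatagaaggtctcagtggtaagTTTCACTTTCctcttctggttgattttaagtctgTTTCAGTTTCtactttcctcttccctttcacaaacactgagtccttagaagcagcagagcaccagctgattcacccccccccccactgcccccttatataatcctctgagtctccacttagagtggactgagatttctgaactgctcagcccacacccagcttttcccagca
Rsad2: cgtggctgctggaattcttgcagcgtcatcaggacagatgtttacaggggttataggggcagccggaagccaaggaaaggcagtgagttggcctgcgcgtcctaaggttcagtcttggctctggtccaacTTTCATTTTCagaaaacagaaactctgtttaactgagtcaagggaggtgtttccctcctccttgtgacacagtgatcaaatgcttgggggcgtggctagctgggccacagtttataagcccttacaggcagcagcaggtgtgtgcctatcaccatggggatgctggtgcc
Gpr141b: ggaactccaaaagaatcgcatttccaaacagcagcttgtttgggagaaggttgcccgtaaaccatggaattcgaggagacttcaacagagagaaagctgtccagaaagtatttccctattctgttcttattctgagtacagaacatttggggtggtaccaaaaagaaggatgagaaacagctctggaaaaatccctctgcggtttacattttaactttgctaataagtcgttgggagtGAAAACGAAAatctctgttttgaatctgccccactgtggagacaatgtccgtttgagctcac
Gpr141: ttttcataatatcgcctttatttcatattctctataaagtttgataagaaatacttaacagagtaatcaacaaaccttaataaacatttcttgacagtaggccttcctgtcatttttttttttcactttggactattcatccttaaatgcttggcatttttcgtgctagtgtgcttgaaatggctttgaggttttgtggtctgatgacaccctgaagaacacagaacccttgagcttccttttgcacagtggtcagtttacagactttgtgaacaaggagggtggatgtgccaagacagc
Ifit3 holds 2 matches, starting at -156 and -122 from the start site, Rsad2 holds 1 at -120, Gpr141b holds 1 at -12 and Gpr141 holds none in this window. Of all tested genes 15008 had a promoter in the table, and 587 of them (3.91%) held a match. Among kept genes of at least 2-fold in a tissue the share was 18 of 148 (12.2%) where CD172a+ cells were higher and 6 of 258 (2.33%) where CD24+ cells were higher. Among lost genes of at least 2-fold it was 9 of 39 (23.1%) where culture read at or above the higher spleen subset and 6 of 161 (3.73%) where it read at or below the lower one. Between the spleen subsets it was 5 of 56 (8.93%) nearer the lower and 0 of 17 nearer the higher. By direction the lost genes gave 7 of 106 (6.6%) where CD24+ and 13 of 167 (7.78%) where CD172a+ spleen cells were higher. Over all tested genes read at or above the higher spleen subset it was 362 of 8209 (4.41%). These shares describe letters in a window and carry no test.

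Gained differences were led by genes alike in the 2 spleen subsets. Lyz2, lysozyme, a gene of myeloid cells, read 10.73 to 10.85 on spleen CD24+ and 10.20 to 10.81 on spleen CD172a+ arrays. In culture it read 10.66 to 11.58 on CD24+ and 6.38 to 7.16 on CD172a+ arrays. The culture CD172a+ arrays alone were low, and the difference was 4.59 ± 0.13 (24.1-fold) after 0.21 ± 0.13 in spleen, a change of 4.37 ± 0.19 (adjusted p = 6.02e-07). Entpd1, the ectonucleotidase CD39, had the same form, with means of 10.53 and 10.56 in the spleen subsets, 10.79 to 11.33 on culture CD24+ and 6.69 to 7.10 on culture CD172a+ arrays (4.28 ± 0.09, adjusted p = 2.30e-08). Asb2, a ubiquitin ligase subunit (3.16 ± 0.09), Gm2a, a lysosomal lipid activator (3.17 ± 0.11), Havcr2, the receptor TIM-3 (3.0 ± 0.09), the signalling protein Vav1 (2.77 ± 0.08) and Itgal, the alpha chain of LFA-1 (2.58 ± 0.14), followed. Without either culture KO mouse the spleen differences of Havcr2 and Itgal (kept then) and of Asb2 (reversed then) were called as well. Macc1 differed otherwise: it was low in both spleen subsets (5.12 and 5.08) and higher in culture CD24+ cells (8.66 against 5.56).

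In many gained genes the CD172a+ cells were the ones that differed. Among 136 gained genes at least 2-fold higher in culture CD24+ cells (2.15% of all genes were that much higher), the median tissue difference (culture minus spleen, relative to the median gene) was 0.11 in CD24+ and -1.55 in CD172a+ cells, and 26 of the 136 read higher in culture CD172a+ than in spleen CD172a+ cells. Among 77 gained genes at least 2-fold higher in culture CD172a+ cells (0.959% of all genes were) the medians were 0.706 and 1.99. Plekhs1 led these, with 4.99 to 5.34 on all spleen arrays, 5.77 to 6.58 on culture CD24+ and 8.80 to 9.60 on culture CD172a+ arrays (-3.20 ± 0.13). Ubd, the ubiquitin-like modifier FAT10 (-2.30 ± 0.14), Plat, tissue plasminogen activator (-2.12 ± 0.14), Phlda2 (-1.89 ± 0.14) and Blnk, an adaptor of B cell receptor signalling (-1.78 ± 0.07), were also higher in culture CD172a+ cells, and Blnk was reversed without either culture KO mouse. Gja1, connexin 43, read 5.80 and 5.68 in spleen and 7.64 and 9.43 in culture.

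Reversed genes included integrins and receptors used to define the lineage. Itgax (CD11c), a pan-dendritic marker, was 0.37 to 0.72 higher in CD172a+ cells of the spleen mice and 2.33 to 3.0 higher in CD24+ cells of the culture mice (change 3.17 ± 0.10, adjusted p = 1.16e-07). It read 12.21 to 13.06 on all spleen arrays, 10.86 to 11.08 on culture CD24+ and 7.86 to 8.66 on culture CD172a+ arrays. Itgb2, the beta chain that pairs with Itgax, Itgam and Itgal, went from -0.36 ± 0.07 to 2.39 ± 0.07. Of 15 pan-classical dendritic cell genes 4 were kept, 3 lost, 3 gained and 4 reversed (8.68%, 11.4%, 8.48% and 5.13% of all genes). Kit (-0.35 to 1.00) and Dpp4 (-0.33 to 1.55) were among the reversed, Dpp4 not without spleen WT replicate 1 or spleen KO replicate 2, and Spi1, the factor PU.1, was gained (-0.01 ± 0.11 to 1.09 ± 0.11).

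Large reversals toward CD24+ cells were those of Tespa1, a regulator of T cell receptor signalling (-2.68 ± 0.09 to 2.14 ± 0.09), Hpgds, which makes prostaglandin D2 (-1.65 ± 0.13 to 2.87 ± 0.13), and Gpr141 (-2.21 ± 0.11 to 2.14 ± 0.11). Gpr141, the neighbour of Gpr141b on chromosome 13, thus had the opposite sign to it in spleen. Its spleen arrays read 9.43 to 10.14 (CD172a+) and 7.19 to 7.90 (CD24+) and its culture arrays 5.21 to 7.16 and 7.51 to 9.20. Pdcd1lg2 (PD-L2), a ligand of PD-1, went from -2.31 to 1.25, Cd69, an early activation antigen, from -1.87 to 1.45, and Axl, a receptor for Gas6, from -1.44 to 1.51.

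In the other direction Lima1, an actin-binding protein, was 3.12 to 3.51 higher in CD24+ spleen cells and 0.75 to 2.13 higher in CD172a+ culture cells (change -4.75 ± 0.25, adjusted p = 2.05e-06). Gprc5c, an orphan receptor (2.84 to -1.55), Net1 (2.36 to -0.64), Cd1d1, which presents lipids to NKT cells (1.06 to -1.73), and the cytokine gene Il15 (1.65 to -0.48) did likewise. For Lima1, Gprc5c and Net1 culture KO replicate 2 had the smallest reversal, and Net1 was 2.39, 2.15, 2.64 and 2.27 in spleen and -0.57, -1.03, -0.93 and -0.02 in culture. Without culture WT replicate 2 the culture differences of Net1 and Il15 were not called, which makes them lost genes there, and without spleen WT replicate 1 Cd1d1 was a gained gene.

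**Figure D5:**
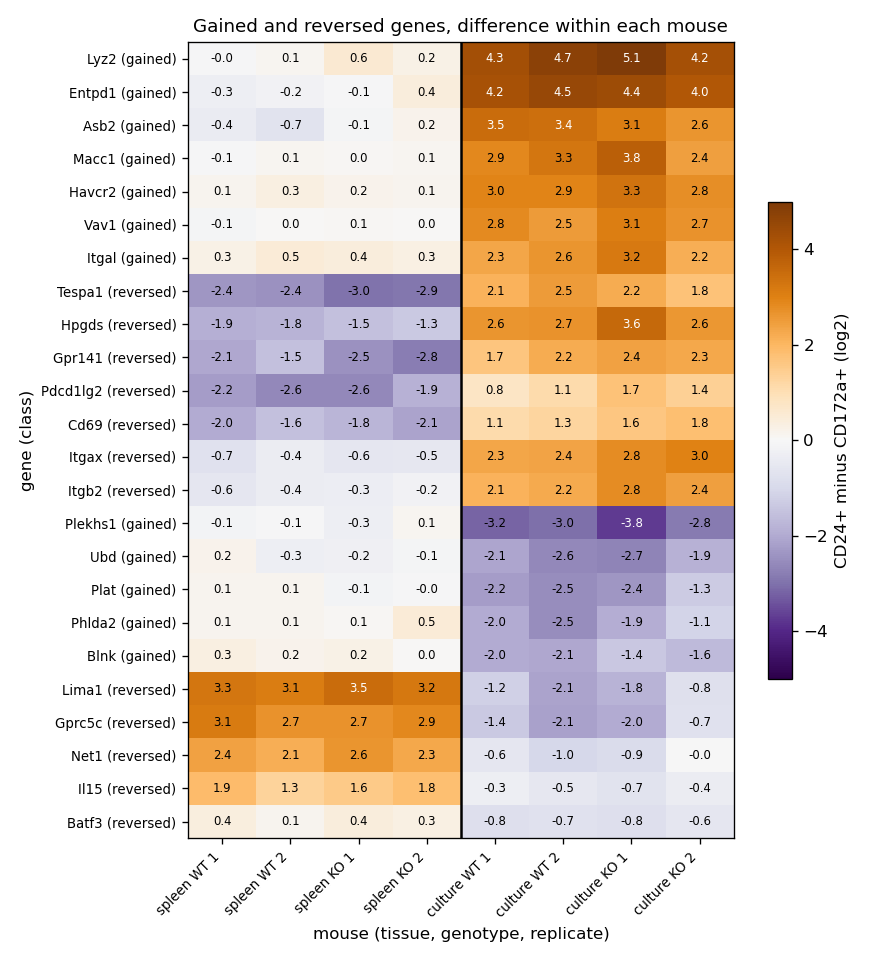
Difference within each of the 8 mice (columns, tissue, genotype and replicate) for 24 gained and reversed genes (rows), CD24+ minus CD172a+ on the log2 scale, with the value in each cell. The line separates the 4 spleen from the 4 culture mice. Rows such as Tespa1 change colour across it in all mice, while culture KO replicate 2 is nearest 0 for Net1.

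Of 23 measured cytokine genes 8 were gained, 4 reversed, 5 kept and 3 lost (8.48%, 5.13%, 8.68% and 11.4% of all genes). Without culture KO replicate 2 the lost were 6 and the gained 6. Il18 went from -0.06 ± 0.26 to 2.27 ± 0.26 and Il1b from -0.56 to 1.38, both toward CD24+ cells, though the spleen difference of Il1b was not called without any 1 spleen mouse. The IL-12 subunit Il12b was 2.42 to 3.16 higher in spleen CD24+ cells and 0.10 to 0.46 higher in culture ones, with culture means of 13.85 and 13.60. Without culture WT replicate 1 or culture KO replicate 2 that culture difference was not called. Of 19 measured cell cycle genes 9 were gained (8.48% of all genes), 1 reversed, 2 lost and 0 kept, and without culture KO replicate 2 the counts were 8, 3, 1 and 1. Birc5 gave 1.52, 1.76, 1.6 and 0.73 in the culture mice after -0.34 to 0.08 in spleen, and Top2a 1.19, 1.5, 1.47 and 0.36, while Tyms and Mcm3 were higher in culture CD172a+ cells (-0.71 and -0.83). Without either culture KO mouse Top2a and Tyms were reversed genes, and Tyms also without spleen KO replicate 2. Of 7 Toll-like receptor genes 4 were kept, with Tlr1 at -3.11 and -0.90, and Tlr9 was reversed (-0.33 to 1.36). Its spleen difference was not called without any 1 spleen mouse.

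MHC class II genes, the targets of Ciita, had differences that lay apart by genotype, so the mean of both genotypes describes neither. The genotype difference within a tissue was not tested here. H2-Eb1 gave -0.03 and 0.01 in the WT and 1.18 and 1.29 in the KO spleen mice, and 0.25 and 0.23 in the WT and 2.53 and 2.00 in the KO culture mice. On WT spleen arrays it read 14.05 to 14.08, near the highest value of the data set (14.55). On KO spleen arrays it read 10.68 to 12.45. Whether the top of the signal range limits the WT difference was not tested. H2-DMa gave 0.15, 0.16, 0.56 and 0.52 in spleen and 0.97, 0.96, 3.34 and 2.97 in culture. Across all genes the change between tissues differed by genotype for 0 of 19187 genes by limma (0.0% called, 897 genes or 4.68% at an unadjusted p under 0.05). With WT mice alone 3942 genes changed and with KO mice alone 2927.

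Markers of some other cells were among the lost genes. Of 15 neutrophil and precursor markers 9 were higher in spleen CD24+ and 2 in spleen CD172a+ cells (16.4% and 14.3% of all genes), and 0 in culture CD24+ cells. Of the list 9 were lost (11.4% of all genes), 7 from the CD24+ side and 2 from the CD172a+ side. S100a8 differed by 2.09, 0.22, 1.99 and 3.53 in the spleen mice and by -0.20 to 0.06 in the culture mice, and the mean of the list read 6.38 to 8.07 (array means) in spleen CD24+ cells, 6.4 to 6.69 in spleen CD172a+ and 5.71 to 5.97 in culture. In spleen WT replicate 2 S100a8 differed by 0.22, Gpr141b by 5.70, Irf8 by 3.75 and Xcr1 by 5.23. The part of neutrophils in these values was not tested. Of 15 red pulp macrophage markers 11 were higher in spleen CD172a+ and 1 in spleen CD24+ cells, and 8 were lost, 7 of them from the CD172a+ side, among them C1qa (-1.46 to -1.96 in spleen, -0.21 to 0.19 in culture). The list read 8.16 to 8.98 in spleen CD172a+ cells, 7.49 to 7.92 in spleen CD24+ and 6.90 to 7.14 in culture, and Adgre1 (F4/80) went from -4.14 to -0.42 (its culture difference was not called without culture WT replicate 1). The part of these cells in the lost genes was not tested. Of 10 B cell markers 2 were higher in spleen CD24+ and 4 in spleen CD172a+ cells, and 5 were lost, 1 and 4 from those sides. Of 12 T and NK cell markers 6 and 2 were, and 5 were lost, 4 and 1 from those sides. Of 9 plasmacytoid dendritic cell markers 6 were higher in spleen CD24+ and 2 in spleen CD172a+ cells. Of these 9 markers 5 were lost, 4 from the CD24+ and 1 from the CD172a+ side. Other lists went less this way. Of 13 monocyte markers 4 were kept (8.68% of all genes) and 3 lost. Of 5 erythroid markers 1 was lost, and of 8 basophil and mast cell markers 0 were lost.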

How the data were processed

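The authors deposited 1 table of log2 values for 16 arrays (3.06 to 14.55), and no source used here names their normalization. Array medians were 7.29 to 7.32 in spleen and 6.85 to 6.92 in culture. Of 30177 probe sets 21789 had 1 gene symbol, 1621 several and 6767 none. The platform's symbols were updated by Entrez number for 21698. The probe set with the highest mean stood for a gene (999 genes had several), and 751 genes on X and Y were left out. The differences of the 8 mice were fitted with limma 3.58.1 in R 4.3.3, with 1 mean for each tissue and genotype (4 residual degrees of freedom), and p-values were adjusted by Benjamini-Hochberg over 19187 genes (threshold 0.05). SEs and 95% intervals are from this fit. The script was tested on simulated data.

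The labels name the mouse of each array, so the 2 arrays of a mouse are paired. Deviations of paired arrays from their group means correlated at -0.098 (spleen WT), 0.206 (spleen KO), 0.208 (culture WT) and 0.394 (culture KO).

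The members and gene lists were chosen with earlier results of these data known. Named genes are the 4 markers, the sort markers, the genes with the largest changes or kept differences in each class and direction, all members of the cDC1, cDC2, Notch2 and p200 lists, and the most changed members of the other lists. The interferon list's Rigi is counted under the older symbol Ddx58 that the gene table uses. Likeness across mice is not given, because the 8 differences fall into 2 clusters by tissue. The number of arrays limits the precision.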

Additional observations from a re-analysis of the deposited data

Results flagged for a closer look

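Among 238 groups of 4 mice, 12 held a mouse whose subset difference lay far from the other 3 (a gap to the nearest above Dixon's 95% critical share of the range), where chance gives about 1 in 20. In spleen these were Cd1d1 (1.33 in WT replicate 1), Oas2 (-2.87 in WT replicate 1), Havcr2 (0.32 in WT replicate 2), Naaa (3.32 in WT replicate 2), Csf1r (-1.71 in KO replicate 1) and Irf8 (4.27 in KO replicate 1). Cd209a (-3.19) and Phlda2 (0.49) stood apart in spleen KO replicate 2. In culture they were Clec10a (-0.33 in WT replicate 1), Itgae (1.67 in WT replicate 2), Hpgds (3.57 in KO replicate 1) and Ifit1 (-0.97 in KO replicate 2). The subset difference itself differed between the tissues, by the limma test of the change, for 2601 genes toward CD24+ and 3146 toward CD172a+ cells (2958 and 2456 with each mouse's median set to 0), and 984 were called with opposite signs.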

How the results depend on the processing

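Setting each call at a minimum of 2-fold left 815 genes in spleen, 596 in culture and 1183 for the change, with 142 kept, 496 lost, 316 gained and 16 reversed. Under this rule a lost or gained gene can still differ by under 2-fold in the other tissue with a passing p. Of the 2182 lost and 1628 gained genes of the main fit, 311 and 185 held their class. WT mice alone gave 1413 lost and 565 reversed genes and a size difference of -0.062. KO mice alone gave 3540, 2383 and 2927 calls, with 666 kept, 1448 lost, 759 gained and 317 reversed, and a size difference of -0.101 (exact permutation p = 0.3333 in either genotype, the smallest that 2 against 2 mice allow). Fewer mice entered these fits.

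Leaving out 1 mouse at a time gave 4185 to 6411 calls in spleen, 3642 to 5160 in culture and 4567 to 5828 for the change. Kept genes numbered 1221 to 1932, lost 1692 to 2380, gained 1218 to 1677 and reversed 616 to 1030, with 616 without spleen KO replicate 1. Genotype dependence was called for 0 to 4 genes (4 without culture KO replicate 1). The size difference ran from -0.099 to -0.057, and the correlation between tissues from 0.266 to 0.279. Of 118 genes named in the text 95 had the same class without each of the 8 mice.

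Without the pairing of arrays by mouse (no replicate block), 5587, 4808 and 5441 genes were called, with 1429 kept, 2223 lost, 1630 gained and 811 reversed. With mouse differences scaled to 1 standard deviation the changes of Ifit3, Rtp4 and Siglecg turned to -0.04, -0.05 and -0.28, and with WT mice alone that of Ifit3 turned to -0.13. The cause was not tested. With this scaling 5360 genes were called in spleen and 5640 in culture, so the order of the tissues turned. Lost genes were then 1817 and gained genes 1995, so that order turned too. Scaling keeps the sign of every mouse's difference, so for kept genes it bears on size and not on direction.

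The alternatives of normalization, centring, dim genes, probe set choice, design and variance model kept all class counts within 1.5 times. Membership of the classes was less stable than their counts. Centring left 83.9% of lost and 83% of gained genes in their class, and no replicate block left 76.7% of reversed genes. With WT mice alone 52.1% to 62% of each class stayed, and with KO mice alone 31% to 48.5%. Organ, culture and activation cannot be told apart, and the precision rests on 4 mice per tissue.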
